A study of Mus musculus with 2 samples.

Results

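The miRNA genes described here lie inside Sfmbt2 on mouse chromosome 2. They were chosen by position alone: every miRNA gene of the deposited tables that GENCODE release M21 places wholly within Sfmbt2 (10370510 to 10595253, plus strand, GRCm38) on its strand. This gave 107 of the 1973 miRNA genes in the tables. All 107 fell in 1 intron of 62472 bases, which is intron 11 of one annotated transcript and intron 10 of another, from 10461473 to 10523944. The first gene started at 10465287 and the last ended at 10518279, a span of 53 kb. By name there were 5 genes of the Mir297 type, 20 of the Mir466 type, 14 of the Mir467 type, 20 of the Mir669 type and 48 that carry only a provisional Gm name. The same release places 12 further miRNA genes in the intron, for which no counts were analysed here. The search for shared sequence described below took in all annotated hairpins.

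The study sequenced short RNA, in a size range below 30 bases, from the facial prominences of healthy B6NCrl mouse embryos at day 13.5, with males and females pooled. Facial prominences are the swellings from which the jaws, palate and nose form. There were 2 libraries of 1 untreated group, biological replicates 1 and 2 by their labels, so the data give levels and their spread and no contrast between conditions. Values are reads counted on the strand of the gene, and CPM is a gene's counts per 1000000 such counts over all miRNA genes.

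Sfmbt2 encodes a Polycomb-group protein with MBT repeats. The gene is imprinted in the mouse, with expression from the paternal copy in early embryos and extraembryonic tissue, and its intronic miRNA cluster is known mainly from the placenta. The cluster is a rodent array that grew by repeated duplication, and many of its hairpins hold stretches of alternating purines and pyrimidines. A miRNA recognises its targets mainly through its seed, bases 2 to 8 of the mature strand.

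Genes of the same 4 name types also lie outside Sfmbt2, and their mature strands show the kind of repeat that the cluster carries. There were 10 such genes, each with 0 counts in both libraries. None of the 107 cluster genes and 8 of these 10 matched a mature entry by symbol in the RefSeq table (GRCm38.p6). The 8 are printed 5′ to 3′ with the seed in capitals, as those with a mature entry. Each shares a stretch of 14 or more bases with at least 1 hairpin of the cluster.
miR-466j: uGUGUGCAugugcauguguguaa
miR-466k: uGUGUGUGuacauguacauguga
miR-466i-3p: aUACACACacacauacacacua
miR-466q: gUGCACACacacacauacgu
miR-467f: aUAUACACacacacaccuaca
miR-467g: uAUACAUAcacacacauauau
miR-467h: aUAAGUGUgugcauguauaugu
miR-669n: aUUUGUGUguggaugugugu

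The 8 seeds all differ, yet 7 of them occur in 10 or more hairpins of the cluster. Searched on the hairpin's own strand, the seed of miR-467g (AUACAUA) was present in 66 of the 107 hairpins, or 61.7%, against 6.65% of all 1894 hairpins with a position. The seed of miR-466j (GUGUGCA) was in 52 cluster hairpins (48.6%, against 4.80% of all) and that of miR-466i-3p (UACACAC) in 51 (47.7%, against 7.81%). The shares were 35.5% against 9.35% for miR-466k, 28.0% against 2.75% for miR-466q, 25.2% against 5.28% for miR-467f and 9.35% against 2.80% for miR-669n. The seed of miR-467h (UAAGUGU) was in 1 cluster hairpin (0.935%, against 0.686% of all). Longer matches were fewer. The first 22 of the 23 bases of miR-466j stood in 10 cluster hairpins, among them Mir466m, and in 11 of all 1894 hairpins. The first 22 of the 23 bases of miR-466k stood in 8, among them Mir466o, and in 9 of all. The first 21 of the 22 bases of miR-466i-3p stood in 1 cluster hairpin, Mir466f-2, and in 2 of all. For the other 5 strands the longest stretch found in the cluster was 14 to 18 bases, in 1 or 3 of its hairpins. For miR-466q it stood in 1 cluster hairpin and in 5 of all 1894, and for miR-669n in 1 and 2. The stretches of miR-467g, miR-467h and miR-467f each stood in 3 cluster hairpins, and in 9, 7 and 52 of all. For miR-467f the shares were alike, at 2.80% of the cluster and 2.75% of all. No cluster hairpin held any of the 8 mature strands whole. These are matches of letters, not sites of processing.

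The cluster hairpins differed from the others in their median base composition. A median of 82.6% of the steps between neighbouring bases in the 107 hairpins went from purine to pyrimidine or back, with a range of 64.3% to 94.6%. In the 1787 other hairpins with a position the median was 43.5%, with a range of 20.3% to 100% that takes in the whole range of the cluster. The median GC content was 38.3% in the cluster and 52.0% elsewhere.

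In these libraries the cluster's counts, which take in only reads with 1 place in the genome, came from a handful of genes. Of the 107 genes, 10 (9.35%) had 10 or more counts in each library, against 18.2% of all 1973 genes. A further 19 had a lower or less regular count, and 78 (72.9%) had none in either library, against 65.4% of all genes. The 107 genes together had 35677 counts in replicate 1, which is 0.782% of the library's gene counts (95% Wilson interval 0.774 to 0.790), and 42744 in replicate 2, which is 0.741% (0.734 to 0.748). Their summed level was 7613 ± 293 CPM (SD, n = 2). The 10 genes held 99.84% of the cluster's counts in replicate 1 and 99.86% in replicate 2. They were chosen by their counts, so a high share follows largely from the choice, and the same share over all genes is not given here. In a bulk tissue sample, fewer cells that make a miRNA and less of it per cell cannot be told apart.

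The counts were concentrated in the Mir467 type. Its 14 genes held 83.3% and 83.9% of the cluster's counts in replicates 1 and 2 and summed to 6364 ± 216 CPM (SD, n = 2). The 20 Mir669 genes held 16.3% and 15.6%, at 1215 ± 80.3 CPM. The 20 Mir466 genes summed to 27.3 ± 1.09 CPM and the 5 Mir297 genes to 4.61 ± 1.56 CPM. The 48 Gm genes had 8 counts in replicate 1 and 18 in replicate 2, and none of them reached 10 in both. No 2 of the 4 named types overlapped between libraries. These sums leave out reads with several places in the genome, so the order of the types is one of uniquely placed reads.

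Within the Mir467 type, 3 genes carried nearly everything. Mir467d (10507630 to 10507714) had 11462 counts in replicate 1 and 12041 in replicate 2, or 2512 and 2086 CPM, and ranked 66 of 1973 genes by mean level. Mir467e (10505721 to 10505807) had 9557 and 11988 counts, or 2095 and 2077 CPM, at rank 70. Mir467c (10473931 to 10474027) had 8699 and 11793 counts, or 1907 and 2043 CPM, at rank 74. The level of Mir467d in replicate 2 fell between the 2 values of Mir467e, so the order of these genes was not fixed by the replicates, while both values of Mir467c lay below both of Mir467e. The other Mir467 genes with a count were Mir467b, with 6 and 19 counts, and Mir467a-1, with 4 and 3. The remaining 9, Mir467a-2 to Mir467a-10, had 0 in both libraries.

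**Figure D1:**
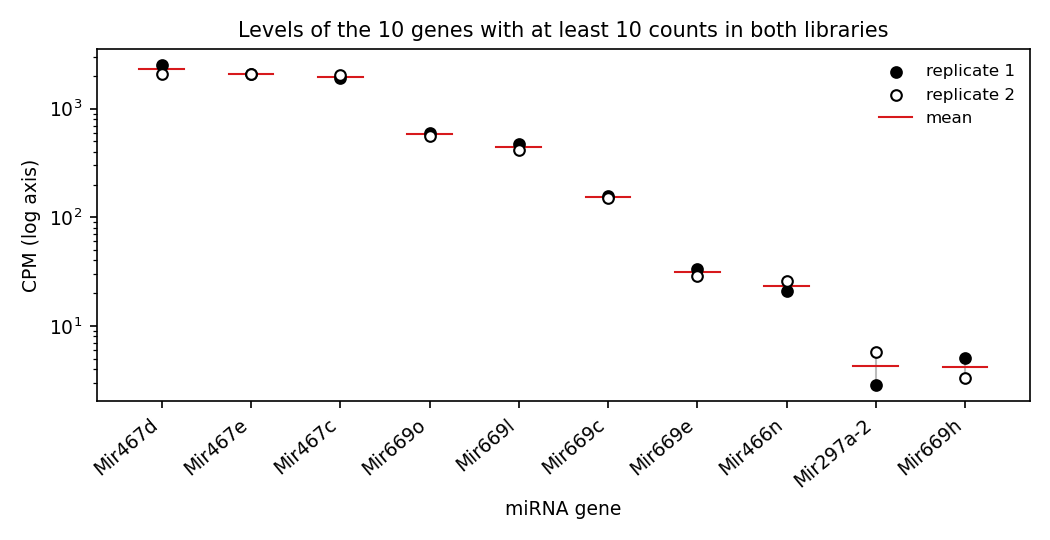
Levels in CPM (log axis) of the 10 cluster genes with at least 10 counts in both libraries, ordered by mean. Filled points are replicate 1, open points replicate 2 and red lines the mean of both. Mir467d, Mir467e and Mir467c sit together between 1907 and 2512 CPM, above Mir669o at 600 and 559 CPM.

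The Mir669 type supplied the next levels. Mir669o (10514300 to 10514395) had 2736 and 3224 counts in replicates 1 and 2, or 600 and 559 CPM. Mir669l (10468971 to 10469068) had 2165 and 2409 counts, or 475 and 417 CPM. Mir669c (10509296 to 10509404) had 716 and 862 counts, or 157 and 149 CPM. Neighbours in this order did not overlap between the libraries. Mir669e (10467495 to 10467613) followed at 33.5 and 28.6 CPM, from 153 and 165 counts. The last was Mir669h (10518155 to 10518279), the most distal gene of the cluster, with 23 and 19 counts, or 5.04 and 3.29 CPM. Of the other 15 Mir669 genes, Mir669f had 7 and 4 counts, Mir669a-3 had 4 and 4, and 13 had none.

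The Mir466 and Mir297 types each had 1 gene above the minimum. Mir466n (10513741 to 10513834) had 95 and 151 counts in replicates 1 and 2, or 20.8 and 26.2 CPM. Both values lay below those of Mir669e. Mir297a-2 (10472254 to 10472343) had 13 and 33 counts, or 2.85 and 5.72 CPM, which overlapped the range of Mir669h. Over the 10 genes the median of the mean level was 299.6 CPM, against 113 CPM over all 360 genes with at least 10 counts in both libraries.

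Of the 19 genes with lesser counts, 10 were seen in both libraries. Besides Mir467b, Mir467a-1, Mir669f and Mir669a-3 these were Gm22072 with 2 and 1 counts in replicates 1 and 2, Mir466f-2 with 5 and 1, Mir466o with 5 and 4, Mir466 with 1 and 2, Gm22239 with 1 and 5, and Gm22925 with 3 and 10. In replicate 1 only there were 5. Mir466l had 14 counts there and 0 in replicate 2, Gm25263 and Mir297b had 2 each, and Mir297c and Mir466d had 1 each. In replicate 2 only there were 4, with 3 counts for Mir466h and 1 each for Gm23988, Gm22091 and Mir466g. The whole group came to 58 counts in replicate 1 and 59 in replicate 2. For uniquely placed reads, the limit set by a count of 0 (3 counts) stood at 0.658 CPM in replicate 1 and at 0.520 CPM in replicate 2.

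Position along the intron divided the cluster into counted ends and a middle with few counts. The division at Mir467c and Mir467e was drawn after the values were seen and is given as a description. The 17 genes up to and with Mir467c, over 8.74 kb, summed to 2459 ± 53.0 CPM (SD, n = 2), and 4 of them had at least 10 counts in both libraries. The 30 genes from Mir467e on, over 12.6 kb, summed to 5150 ± 347 CPM and held the other 6. Between them lay 60 genes over 30.3 kb, which summed to 3.87 ± 1.14 CPM, from 14 counts in replicate 1 and 27 in replicate 2. In that middle stretch 0 genes reached the minimum, 4 had some count and 56 had none. The longest unbroken run without a count took in 41 neighbouring genes, from Gm24761 at 10482612 to Gm25943, which ended at 10501198.

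**Figure D2:**
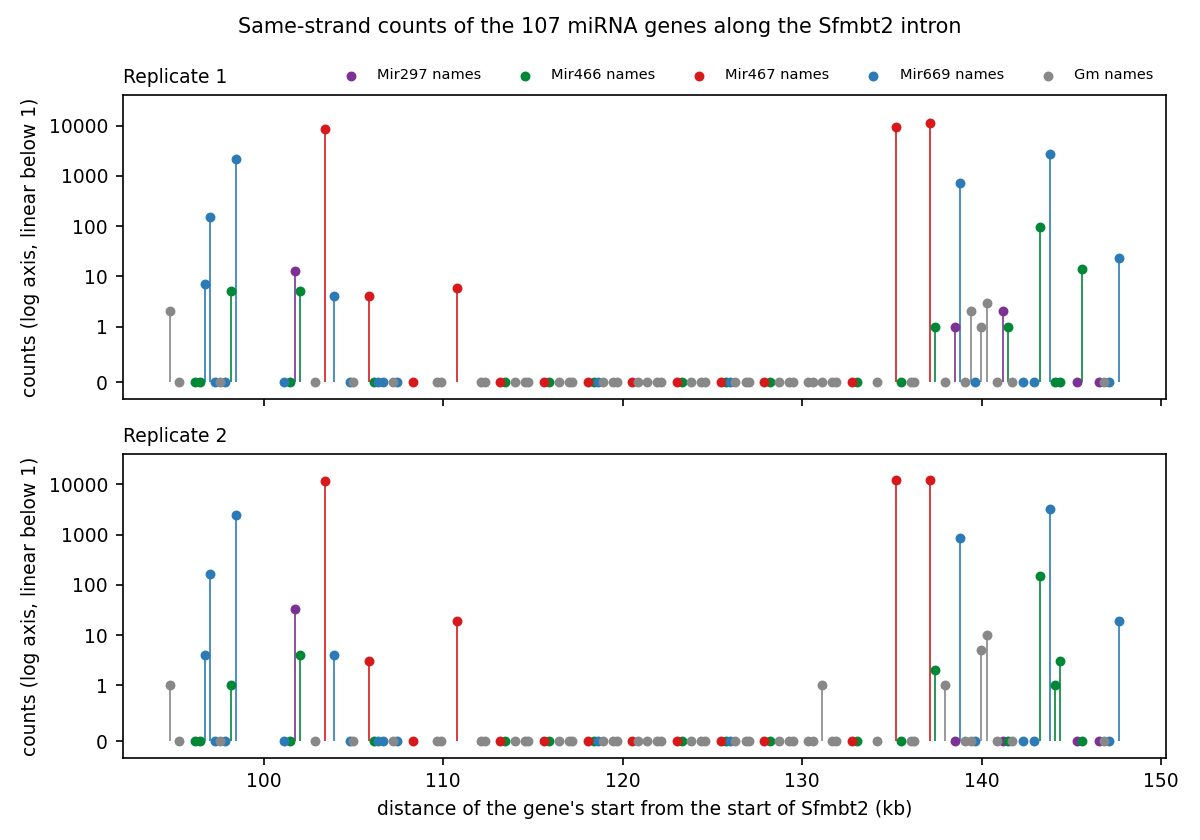
Same-strand counts (log axis, linear below 1) of each of the 107 genes against the distance of its start from the start of Sfmbt2 in kb, with replicate 1 above and replicate 2 below, coloured by name type. Both libraries show the same layout, with all 10 genes of at least 10 counts outside the stretch between Mir467c at 103.42 kb and Mir467e at 135.21 kb.

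By their read classes, the tables count reads with 1 place in the genome towards genes, and reads with several places form a class of their own with no gene. That class held 3179149 reads in replicate 1 (30.7% of the file's reads) and 4058237 in replicate 2 (31.0%), which is 89.1 and 94.9 times the counts of the whole cluster. How many of them came from this intron cannot be told from the tables. For a gene that shares its sequence with others, a count of 0 therefore sets no upper limit on its level.

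How much of each hairpin could give a uniquely placed read was measured by cutting the hairpin into all its windows of 22 bases. Each window was searched on both strands of all 2202 miRNA hairpins that GENCODE M21 annotates, and one found at a single position was called a single-place window. Copies outside annotated hairpins were not searched, so the number of such windows is an upper bound. In the cluster 42 of 107 hairpins (39.3%) had no single-place window, against 13.4% of all 1894 hairpins with a position. By name type these were 10 of the 14 Mir467 genes, 6 of the 20 Mir466 genes, 4 of the 20 Mir669 genes, 0 of the 5 Mir297 genes and 22 of the 48 Gm genes.

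Counts were found mainly where a hairpin had single-place sequence. Of the 42 hairpins without a single-place window, only Mir467a-1 had a count, and the 42 together summed to 0.698 ± 0.252 CPM (SD, n = 2). Where up to 25% of the windows were single-place, 1 of 8 genes had a count, and that was Mir467b. Between 25% and 50% it was 9 of 29, and 2 of these, Mir467d and Mir297a-2, reached at least 10 counts in both libraries. Above 50% it was 18 of 28, with 8 at the minimum. Among the 1787 genes outside the cluster there was a count in 3 of 212 genes without such a window, 0 of 111 up to 25%, 3 of 132 between 25% and 50%, and 646 of 1332 above 50%. Of the 3 outside genes counted without such a window, 2 had at least 10 counts in both libraries, and the 3 came to 440 and 286 counts, so a gene without a single-place window was not always without counts. Among genes with at least 1 single-place window, 28 of 65 in the cluster (43.1%) and 649 of 1575 outside it (41.2%) had a count. At least 10 counts in both libraries were reached by 15.4% of these cluster genes and 22.1% of these outside genes. These shares describe the annotation and the 2 libraries, with no test across genes, which share sequence and transcripts.

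**Figure D3:**
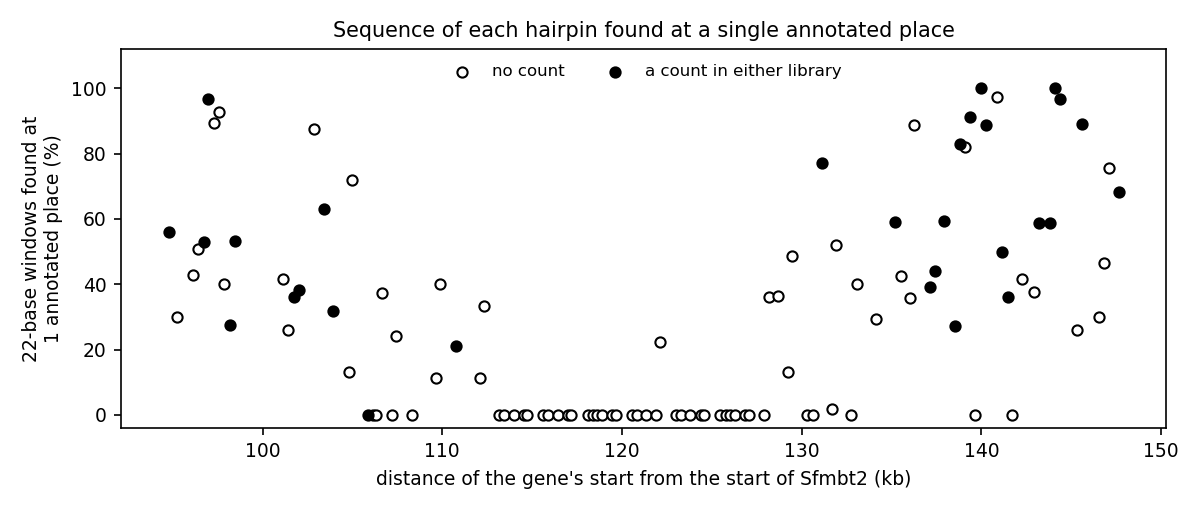
Percent of each hairpin's 22-base windows that were found at 1 annotated place, against distance from the start of Sfmbt2 in kb. Filled points are genes with a count in either library and open points genes with none. A row of open points at 0% fills the middle of the cluster, where 40 of the 60 genes between Mir467c and Mir467e had no such window.

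Nearly all hairpins that were full copies of another lay in the middle of the array. The median share of single-place windows was 50.7% over the 17 genes up to Mir467c, 0% over the 60 in the middle and 58.8% over the 30 from Mir467e on. In the unbroken run of 41 genes without a count, 34 had no single-place window and 7 had at least 1. Of the 107 hairpins, 38 were identical over their full length to at least 1 other, in 15 groups, of which 11 had 2 members, 3 had 3 and 1 had 7. The group of 7 comprised Mir467a-2, Mir467a-4, Mir467a-5, Mir467a-7, Mir467a-8, Mir467a-9 and Gm25022. Of the 38, 37 lay between Mir467c and Mir467e, and the exception was Gm26092, beyond Mir467e. None of the 38 had a count in either library. Through these groups 4 Gm genes were identical to a gene with a miRNA name: Gm25022 to the Mir467a copies, Gm25943 to Mir466b-4 and Mir466b-6, Gm25285 to Mir466c-2, and Gm26092 to Mir669a-1.

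The Mir467 copies show the layout of the array most plainly. Counting Gm25022 there were 15, and the first 13 steps from one start to the next measured between 2413 and 2470 bases, while the last step, from Mir467e to Mir467d, was 1909 bases. The 11 copies of the Mir467a sequence differed from Mir467a-2 by 0 or 1 edits (a base changed, lost or gained, over the shorter of the 2 hairpins), and all had 0 single-place windows. Mir467b, among them, differed by 2 edits and had 11 of 52. The copies with at least 10 counts in both libraries stood at the 2 ends of the row, while Mir467b and Mir467a-1 inside it had fewer. Mir467c, the first copy, differed from Mir467a-2 by 9 edits, and Mir467e and Mir467d, the last, by 10 and 7. They differed from each other by 4 or 5 edits and had 48 of 76, 39 of 66 and 25 of 64 single-place windows. When windows with 1 mismatch also counted as matches, 15 windows of Mir467c, 9 of Mir467e and 13 of Mir467d were still single-place.

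Within a hairpin the spread of single-place windows differed from gene to gene. Windows were assigned to the 5′ or the 3′ part by the midpoint of their row. Mir467d had 19 in the 5′ part and 6 in the 3′ part, Mir467e 20 and 19, and Mir467c 18 and 30. Mir466n had 7 and 36, and Mir297a-2 had 0 and 25. Among the Mir669 genes, Mir669o had 25 and 19, Mir669l 20 and 21, Mir669c 29 and 44, Mir669e 49 and 46, and Mir669h 39 and 32. The counts are given per gene, so which arm the reads came from was not measured.

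A single-place sequence did not go with a count in every case. Among the 78 genes without a count, 10 had over 50% single-place windows; they are named here because of their values. Gm23542 (97.3%), Gm23578 (92.8%), Mir669b (89.5%), Gm22678 (88.8%) and Gm26073 (87.7%) were the highest, followed by Gm24342 (81.9%), Mir669i (75.5%), Gm26491 (72.0%), Gm25753 (52.0%) and Mir466f-1 (50.7%). Mir669b lies beside counted genes, with Mir669e just before it and Mir669l a few genes after. Mir466g and Gm22239, at 100%, had 0 and 1 counts and 1 and 5 counts in replicates 1 and 2. In the other direction, Mir467d was the most counted gene of the cluster with 39.1%.

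**Figure D4:**
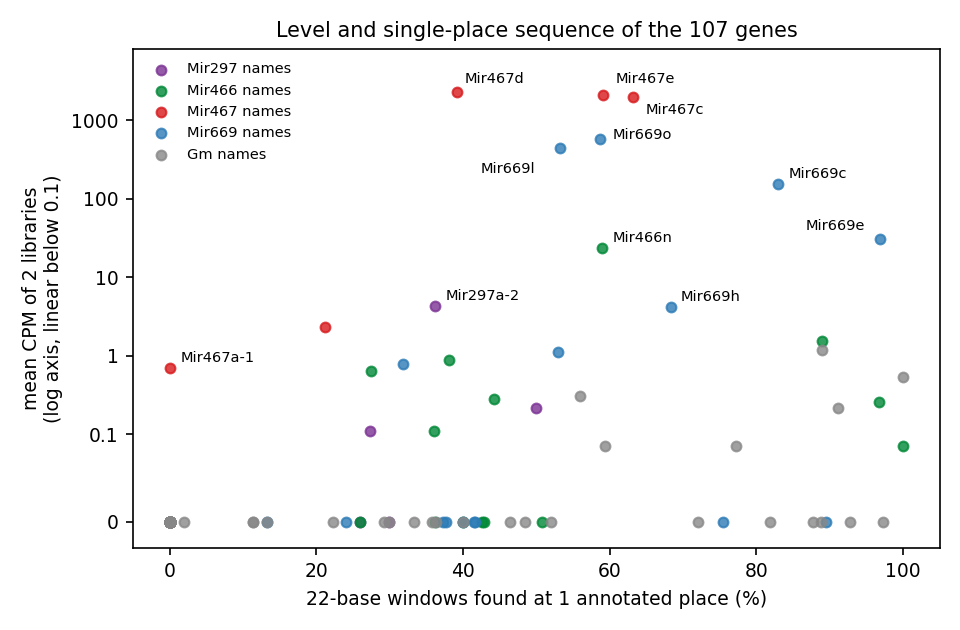
Mean CPM of the 2 libraries (log axis, linear below 0.1) against the percent of single-place 22-base windows for the 107 genes, coloured by name type. Mir467d, Mir467e and Mir467c stand highest at 39.1%, 59.1% and 63.2%, while genes at 0 CPM run across the whole width.

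Between the libraries the counted genes differed by little. After TMM scaling in edgeR, an exact binomial test (two-sided) was run on every one of the 360 genes with at least 10 counts in both libraries. It compares these libraries and not conditions. Of the 10 cluster genes 4 passed after Benjamini-Hochberg adjustment. Higher in replicate 1 were 3 (of all genes 27.2%): Mir467d by 1.20-fold (adjusted p = 4.03e-45 in this exact test), Mir669l by 1.14-fold (adjusted p = 4.19e-05) and Mir669o by 1.07-fold (adjusted p = 0.0130). In replicate 2, 1 was higher (of all genes 27.8%), namely Mir467c, by 1.07-fold with an adjusted p of 3.50e-06 in the same exact test. The other 6 did not pass, with log2 ratios of replicate 2 to replicate 1 from -0.62 for Mir669h to 1.00 for Mir297a-2, both at low counts. The median size of the log2 ratio was 0.21 in the 10 genes and 0.24 over all 360.

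The libraries held 4562135 and 5771249 gene counts. Markers of facial tissue were present in both. Here 4 of 4 epithelial markers summed to 53846 to 55235 CPM, 4 of 4 cartilage and mesenchyme markers to 45689 to 47616 CPM, and the endothelial marker Mir126a stood at 23871 to 25810 CPM. Because the cluster is known from the placenta, markers of trophoblast and pluripotent cells were read beside it. A count was seen for 9 of the 10 that have a line, and they summed to 570 to 631 CPM, nearly all from the Mir302 genes. The Mir290 cluster, which is part of this list, had counts for 5 of 6 genes and summed to 16.6 to 17.1 CPM. Mir293 stood at 8.55 and 7.28 CPM in replicates 1 and 2 and Mir290a at 0. Of neural markers 3 of 6 had a count, with Mir124a-1, Mir124a-3 and Mir9-2 at 0. The neural markers summed to 309 to 324 CPM, nearly all from Mir137. Whether the markers at 0 share their sequence with other genes was not tested, so a 0 here does not show that a marker was absent. Red cell markers summed to 91.0 to 151 CPM and the white cell marker to 363 to 383 CPM. The part of these cells in the counts of the Sfmbt2 cluster was not tested.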

How the data were processed

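The authors deposited 1 table per library with 3 columns of whole-number read counts per miRNA gene, made on mm10 with GENCODE M4 per the deposited description files. The files have no header. Read from the layout, they are an unstranded column, a column for the gene's own strand (used here) and one for the other strand. A further 4 lines are read classes without a gene, which were kept out of all totals. The aligner is not given in the sources used here. Positions and hairpins came from GENCODE M21 (GRCm38, the same build), which matched 1894 of 1973 identifiers; the other 79 had 2 and 7 counts. A search of the whole genome had been planned. Without a genome sequence, windows were searched in annotated hairpins instead.

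Members and lists were chosen with earlier results of these data known. Named were all members with at least 10 counts in both libraries, all others with a count, and the highest of each type; genes without a count, identical copies and the stretches of the array were picked out after their values were seen. Libraries were scaled by TMM (edgeR 4.0.16, R 4.3.3; DESeq2 1.42.0 as an alternative). The binomial test (SciPy 1.17.1, threshold 0.05 after Benjamini-Hochberg adjustment) was tested on simulated data. Edits were counted with edlib. PCR reads carry no molecular identifiers here, so intervals, floors and p-values cover counting error only.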

Additional observations from a re-analysis of the deposited data

Results flagged for a closer look

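Reads placed at several loci, outside the gene counts used above, numbered 3179149 in replicate 1 and 4058237 in replicate 2. They lie outside the main measurement, have no gene in the tables and are totals of the whole library, so they say nothing of this cluster by themselves. Whether the uncounted Mir467a, Mir466b and Mir669a copies contribute to them was not tested.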

How the results depend on the processing

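With a count minimum of 1 in place of 10, 20 genes of the cluster were counted in both libraries. The unstranded column gave 10 genes at the minimum of 10, as many as the same-strand column. Chosen by name wherever they lie, which drops the 48 Gm genes and adds the 10 outside, 46 genes had no count and the summed level was 7611 CPM. Without the most abundant gene in the total the cluster summed to 8146 CPM. Leaving out each library gave 11 to 12 genes at the minimum, 82 to 83 without a count, 7406 to 7820 CPM for the cluster and 0.520 to 0.877 CPM for genes without a single-place window. Total counts, DESeq2 size factors and the unstranded column each left 4 cluster genes past the library test, and a count minimum of 1 left 3 of 20. Windows of 18, 20 and 25 bases gave 42, 42 and 41 genes without a single-place window, and allowing 1 mismatch gave 57, of which 3 had a count (Mir467a-1, Mir467b and Mir466). Of 55 recomputed levels of 11 single genes, 5 moved by more than the SD between libraries. These 5 came from the unstranded column or from the total without the most abundant gene. The 55 include levels with 1 library left out, which cannot move a mean of 2 libraries by more than their SD. No paired analysis was possible because there is 1 group. With 2 libraries, each SD rests on a single difference, and depth limits genes near the floor of 3 counts.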
